A study of Mus musculus with 3 samples.

Results

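Pou3f1, Pou3f2 and Pou3f3 are autosomal genes of the class III POU family, and their chromatin accessibility was followed here in single nuclei of mouse embryos. The 3 genes were taken by name out of 21593 protein-coding genes, with no threshold on a measured value, though with earlier results of these data known. Single-nucleus ATAC-seq, which marks open chromatin by the sites where the transposase Tn5 inserts its adapters, had been performed on wild-type C57BL/6JRj embryos of 3 stages, the embryonic days named E12.5, E13.5 and (latest) E15.5. Each stage was 1 library, made from nuclei of frozen sections of littermates of the embryos profiled by spatial ATAC, so a stage has no replicate and the embryo, the library and the stage cannot be told apart. No treatment or genetic change was applied to any group. The comparisons below are therefore mainly between the clusters of nuclei that the authors assigned, with the 3 libraries as the repeats of each cluster, and between stages they are given as values only.

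POU domain proteins bind DNA through a POU-specific domain and a homeodomain joined by a flexible linker, and the octamer is their classical binding element. Pou3f2 (Brn2) and Pou3f3 (Brn1) are known for roles in neural progenitors and in the production and migration of cortical neurons. Pou3f1 (Oct6, also called Scip or Tst-1) is known for its role in myelinating Schwann cells and is also made in upper-layer neurons of the cortex.

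In the mm10 build, Pou3f1 (ENSMUSG00000090125.3) lies at chr4:124656807-124660655 on the plus strand, Pou3f2 (ENSMUSG00000095139.2) at chr4:22482780-22488366 on the minus strand and Pou3f3 (ENSMUSG00000045515.3) at chr1:42695768-42703176 on the plus strand. Sequences follow for the stretches where the differences described below were large, so that they can be read beside the values. These are the 250 bases before the RefSeq start of Pou3f2 and Pou3f3 (chr4:22488367-22488616, minus strand, and chr1:42695518-42695767, plus strand), and the most cut 300 bases of 4 distal 1 kb tiles. The tile windows are chr4:124672402-124672701 (plus strand, in no gene), chr4:22491254-22491553 (minus strand, in an intron of the long non-coding RNA gene Gm30731), chr4:22495005-22495304 (minus strand, in no gene) and chr1:42686691-42686990 (plus strand, in an intron of the long non-coding RNA gene Pantr1). Each is named by the distance of its tile's centre from the GENCODE start, with minus for upstream, and is written 5′ to 3′ on the strand of its POU3 gene. Capitals mark matches, on either strand, to 1 of 5 short motifs, which are the octamer ATGCAAAT, the SOX core ACAAAG, the E-boxes CAGCTG and CAGATG, and the homeodomain core TAATTA.
Pou3f2 promoter: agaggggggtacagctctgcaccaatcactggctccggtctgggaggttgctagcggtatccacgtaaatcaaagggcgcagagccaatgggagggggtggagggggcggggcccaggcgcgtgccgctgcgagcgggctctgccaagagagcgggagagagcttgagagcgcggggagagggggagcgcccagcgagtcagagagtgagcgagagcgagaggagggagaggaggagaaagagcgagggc
Pou3f3 promoter: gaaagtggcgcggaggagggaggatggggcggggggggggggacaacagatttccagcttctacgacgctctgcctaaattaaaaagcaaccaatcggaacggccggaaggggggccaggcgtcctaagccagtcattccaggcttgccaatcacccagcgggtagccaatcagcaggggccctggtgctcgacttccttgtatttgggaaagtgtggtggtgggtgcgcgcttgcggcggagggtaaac
Pou3f1 +15.69 kb: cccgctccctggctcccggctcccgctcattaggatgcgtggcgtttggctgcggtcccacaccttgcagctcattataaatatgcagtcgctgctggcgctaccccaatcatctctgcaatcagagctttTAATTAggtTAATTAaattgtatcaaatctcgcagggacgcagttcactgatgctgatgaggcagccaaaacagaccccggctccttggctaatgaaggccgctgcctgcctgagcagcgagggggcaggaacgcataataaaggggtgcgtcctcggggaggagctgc
Pou3f2 -3.13 kb: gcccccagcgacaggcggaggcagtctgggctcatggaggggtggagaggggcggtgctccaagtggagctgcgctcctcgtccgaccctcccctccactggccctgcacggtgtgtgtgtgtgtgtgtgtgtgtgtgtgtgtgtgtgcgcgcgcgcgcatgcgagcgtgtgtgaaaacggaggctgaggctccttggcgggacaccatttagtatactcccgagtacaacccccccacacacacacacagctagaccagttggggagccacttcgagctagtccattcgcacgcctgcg
Pou3f2 -7.14 kb: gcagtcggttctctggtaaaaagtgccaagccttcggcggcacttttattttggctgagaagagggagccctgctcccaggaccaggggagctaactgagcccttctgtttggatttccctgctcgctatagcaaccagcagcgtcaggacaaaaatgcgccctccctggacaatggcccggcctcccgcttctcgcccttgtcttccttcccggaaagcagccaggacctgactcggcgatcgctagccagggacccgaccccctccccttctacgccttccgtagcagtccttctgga
Pou3f3 -9.27 kb: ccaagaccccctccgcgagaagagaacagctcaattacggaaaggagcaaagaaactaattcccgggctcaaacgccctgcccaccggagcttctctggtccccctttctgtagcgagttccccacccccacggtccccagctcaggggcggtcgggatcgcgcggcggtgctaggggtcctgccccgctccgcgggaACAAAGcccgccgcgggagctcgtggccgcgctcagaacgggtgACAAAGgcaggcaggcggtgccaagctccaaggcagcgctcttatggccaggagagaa

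The stretch downstream of Pou3f1 held 2 TAATTA matches, 9 bases apart from start to start, and the stretch upstream of Pou3f3 held 2 ACAAAG matches. The other 4 stretches held none of the 5 motifs. Among 32851 RefSeq promoters of the same length, ATGCAAAT occurred in 1.6%, ACAAAG in 16.5%, CAGCTG in 13%, CAGATG in 14.4% and TAATTA in 4.84%. In the central 300 bases of 158084 tested tiles the shares were 1.44%, 22.1%, 19%, 22.9% and 6.02%, in the same order. The printed stretches were chosen as the most cut bases and the tile shares are for tile centres, so the pair is a description only.

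The libraries, always given here from the youngest to the oldest, held 153, 970 and 756 nuclei, with a median of 30239, 62902 and 43485 unique fragments per nucleus. No barcode was shared between E12.5 and either other library, and 1 was shared between E13.5 and E15.5. Clusters 2 and 4 were left out by rule, and 10 clusters remained. Against marker genes, cluster 0 was neuron-like (8 of 8 markers at least 1.5-fold higher than in the other clusters), cluster 6 neuron-like (7 of 8, with 4 of 7 neural progenitor markers and with Neurod6, Slc17a6 and Neurod2 among its leading genes) and cluster 9 neural progenitor-like (7 of 7, led by genes that included Fabp7, Sox3 and Fezf2). Cluster 1 was mesenchyme-like (7 of 7), clusters 5 and 11 erythroid-like and cluster 10 muscle-like. Cluster 3 also had 7 of 7 mesenchyme markers, with a median fold of 1.65 beside 3.18 in cluster 1. It stayed unnamed because its leading genes were others, and clusters 7 and 8 stayed unnamed because their markers were mixed. Since the clusters were made from the same nuclei, the tests below describe these clusters and are not independent evidence that they differ. Fragments were summed per cluster and library, and 23 sums of at least 10 nuclei, 8 of them neural, entered 1 edgeR quasi-likelihood fit with cluster and library as terms. Cluster 11 was outside the fit, having that many nuclei in 1 library only. The E12.5 sums were small, with 11 nuclei in cluster 0, 11 in cluster 9, 10 in cluster 1 and 5 in cluster 6, the last being under the minimum and not fitted.

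All 3 POU3 genes were more accessible in the neural clusters than in the mean of clusters 1, 3, 5, 7, 8 and 10, over the gene body plus 2 kb upstream (windows of 5849 bp for Pou3f1, 7587 bp for Pou3f2 and 9409 bp for Pou3f3). In the 2 later libraries the ratio of the neural mean to the mean of the others was largest for Pou3f2 (4.47 and 6.27), then Pou3f3 (2.58 and 2.84) and Pou3f1 (2.05 and 1.79). At E12.5 the order was another, with 2.68 for Pou3f3, 1.74 for Pou3f1 and 1.15 for Pou3f2. That library had fitted sums of clusters 0 and 9 against clusters 1, 3 and 5 only, so its ratios are over another set of clusters. Levels are CPM, the unique fragments in the window scaled to 1e6 unique fragments of the sum, which compare clusters for 1 gene. A higher level can come from more open nuclei or from more fragments per nucleus, and a sum cannot tell these apart.

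In neural progenitor-like cluster 9, the Pou3f2 window had 22.6, 51.0 and 76.9 CPM from the youngest to the oldest library. In cluster 6 it had 46.9 CPM at E13.5 and 45.6 at E15.5, beside 28.9 in the 5 nuclei at E12.5, and in cluster 0 it had 17.3, 30.5 and 28.9. The mesenchyme-like cluster 1 had 42.9 CPM at E12.5, then 15.1 and 10.3. The high E12.5 value of cluster 1 stood above every neural sum of that library. It rested on 25 fragments in 7 of 10 nuclei, 9 of them in 1 nucleus. The other fitted sums of clusters 3, 5, 7, 8 and 10 lay between 0 and 14.7 CPM, and no Pou3f2 fragment was found in cluster 11. In the 2 later libraries each of the 3 neural sums was above each of the 6 others, while at E12.5 the groups overlapped. In means over libraries (± SD), cluster 9 had 50.14 ± 27.18 CPM (n = 3), cluster 6 had 46.26 ± 0.97 (n = 2), cluster 0 had 25.58 ± 7.22 (n = 3) and cluster 1 had 22.76 ± 17.60 (n = 3). The order ran 9, 6, 0, 1, 10, 3, 7, 8, 5, and of the neighbours in the upper part, the 2 fitted sums of cluster 6 did not overlap cluster 0 while 9 and 6, and 0 and 1, did. With its 5 nuclei at E12.5, cluster 6 overlapped cluster 0 too.

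Pou3f3 was the one member whose neural sums exceeded all others in every library, E12.5 included. It had 52.9, 48.7 and 76.2 CPM in cluster 9 over the 3 libraries. Cluster 6 had 42.9 CPM at E13.5 and 52.0 at E15.5, beside 39.97 in the 5 nuclei at E12.5, and cluster 0 had 25.5, 36.3 and 39.4. In cluster 9 the libraries were thus closer to each other than for Pou3f2, and the E12.5 value was no lower than the E13.5 one. The highest level outside the neural clusters was 32.6 CPM in cluster 1 at E15.5, where cluster 0 of that library had 39.4. The lowest fitted sum was 5.37 CPM, in erythroid-like cluster 5 at E13.5. Means over libraries were 59.27 ± 14.84 CPM in cluster 9 (SD, n = 3), 47.46 ± 6.41 in cluster 6 (n = 2), 33.75 ± 7.30 in cluster 0 (n = 3), 22.95 ± 8.45 in cluster 1 (n = 3) and 9.37 ± 1.80 in cluster 8 (n = 2). As for the fitted sums of Pou3f2, clusters 9 and 6 overlapped and cluster 6 lay above cluster 0 without overlap.

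Pou3f1 was more even over the embryo's nuclei. In cluster 6 it had 25.99 CPM at E13.5 and 24.1 at E15.5, and 13.3 in the 5 nuclei at E12.5. Cluster 9 had 17.9, 23.4 and 21.6 CPM in order of age, and cluster 0 had 13.99, 25.8 and 20.5. Cluster 1 was near the neural range in all libraries, with 15.4, 17.8 and 16.9 CPM. At E12.5 cluster 1 was above cluster 0, so the groups overlapped there, while at E13.5 and E15.5 all neural sums were above all others. The remaining fitted sums lay between 3.13 and 13.8 CPM. Cluster 11 at E15.5 showed 40.6 CPM from 4 fragments in 7 nuclei, too few to place it. The means were 25.03 ± 1.36 CPM in cluster 6 (SD, n = 2), 20.97 ± 2.83 in cluster 9 (n = 3), 20.10 ± 5.92 in cluster 0 (n = 3) and 16.73 ± 1.21 in cluster 1 (n = 3). The fitted sums of cluster 6, which lack E12.5, did not overlap those of cluster 9, while its 5 nuclei at E12.5 were below them, so its first place is not settled. Cluster 1 did not overlap the next, cluster 3.

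**Figure D1:**
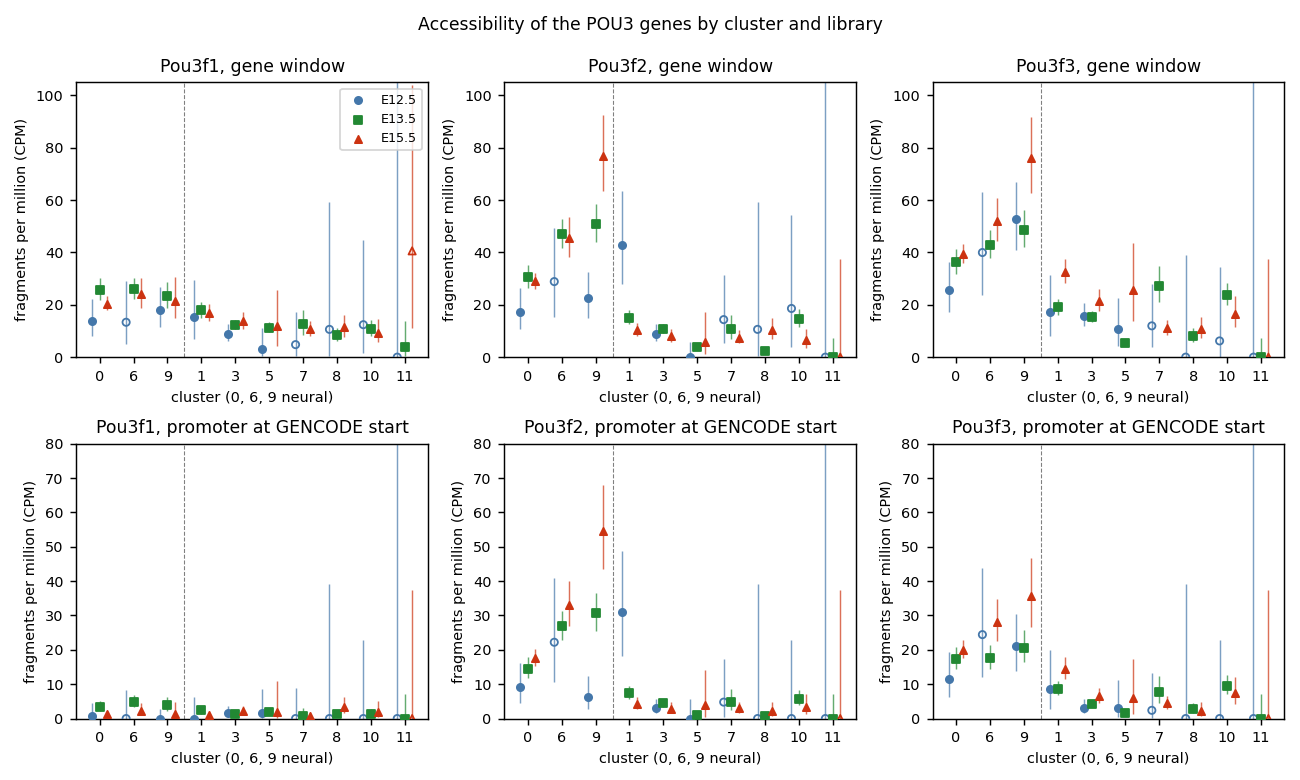
CPM in the gene window (top) and in the promoter at the GENCODE start (bottom) of each POU3 gene, by cluster (x axis) and library (blue circles E12.5, green squares E13.5, red triangles E15.5). Bars are 95% exact Poisson intervals (counting error only, running past the top for sums with few fragments), open symbols are sums of under 10 nuclei, and the dashed line parts the neural clusters 0, 6 and 9 from the others; Pou3f2 and Pou3f3 reach 76.9 and 76.2 CPM in cluster 9 at E15.5, and Pou3f2 has 1 high value outside the neural clusters, 42.9 CPM in cluster 1 at E12.5.

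In the fit over 19124 genes, all 3 genes passed an edgeR adjusted p (Benjamini-Hochberg over all genes) of 0.05 in each neural cluster against the others. As background, 7.83% of all tested genes were called higher in cluster 0, 5.63% in cluster 6 and 5.73% in cluster 9. For Pou3f2 the log2 fold change was 1.81 ± 0.29 in cluster 0 (SE, adjusted p = 2.9e-05), 2.54 ± 0.31 in cluster 6 (5.0e-07) and 2.69 ± 0.29 in cluster 9 (2.8e-08). For Pou3f3 it was 1.30 ± 0.23 (8.7e-05), 1.67 ± 0.25 (1.3e-05) and 2.03 ± 0.23 (6.5e-08) in the same order. For Pou3f1 it was 1.03 ± 0.20 (0.00034), 1.17 ± 0.22 (0.00045) and 1.04 ± 0.22 (0.0014). The order of size was the same in each cluster, with Pou3f2 first and Pou3f1 last, though differences between the genes were not tested. The 3 comparisons share the sums of the other clusters. Over the mean of the neural clusters, where 11.2% of genes were called higher, the log2 fold changes were 2.35 ± 0.22 for Pou3f2, 1.67 ± 0.17 for Pou3f3 and 1.08 ± 0.15 for Pou3f1. Of all genes called over that mean, 55.0% were higher with TMM scaling and 38.6% without it, where the median gene moved from -0.025 to -0.11, and the calls of the 3 genes held under both. The Pou3f1 calls in single clusters were lost without the E13.5 library, although the log2 fold changes stayed at 0.93, 1.17 and 1.09 (adjusted p of 0.18, 0.33 and 0.17), and without E15.5 cluster 6 had 1.22 (0.086). The Pou3f1 call over the mean of the neural clusters held under all 15 alternatives, with 1.00 to 1.16 and a largest adjusted p of 0.013.

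Between the neural clusters, no difference over the gene window passed the test for any of the 3 genes. Cluster 9 against cluster 0 gave a log2 fold change of 0.87 ± 0.39 for Pou3f2 (edgeR adjusted p = 0.29), 0.73 ± 0.30 for Pou3f3 (0.24) and 0.015 ± 0.27 for Pou3f1 (0.99), with 1.61% of genes called higher. Cluster 6 against cluster 0 gave 0.73 ± 0.42 for Pou3f2, 0.37 ± 0.33 for Pou3f3 and 0.14 ± 0.29 for Pou3f1, where 0.0366% of genes were called higher, and cluster 9 against cluster 6 gave 0.14 ± 0.42, 0.35 ± 0.33 and -0.13 ± 0.30, where 0.0994% were. The standard errors leave room for an increase of Pou3f2 and Pou3f3 in cluster 9 as large as several of the called differences, so these values do not show that the neural clusters are alike. Unnamed cluster 7 had 5 of 5 chondrocyte, 6 of 7 epithelium and 4 of 6 Schwann cell and neural crest glia markers. Its log2 fold changes against the remaining non-neural clusters were -0.10 for Pou3f1, 0.03 for Pou3f2 and 0.23 for Pou3f3. None of them was called (0.931% of genes were called higher).

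**Figure D2:**
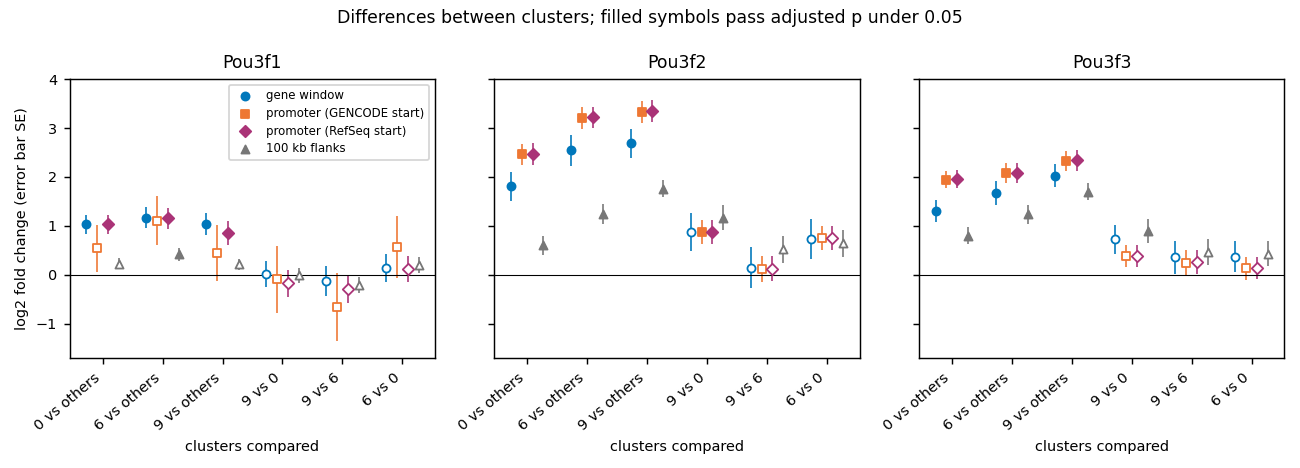
Log2 fold changes between clusters (y axis, bars ± 1 SE from the edgeR fit) for each comparison (x axis) over the gene window, the promoter at the GENCODE or RefSeq start, and the 100 kb flanks. Filled symbols passed an adjusted p of 0.05. The gene window is filled for all 3 genes in each comparison of neural with non-neural clusters. In these comparisons the promoter values of Pou3f2 and Pou3f3 exceed those of the gene window. Between the neural clusters no gene window is filled.

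In the fit, the promoter (1000 bases before to 100 after the GENCODE start) set each neural cluster further from the non-neural ones than the gene window did, for Pou3f2 and Pou3f3. At the Pou3f2 promoter, cluster 9 had 6.22, 30.6 and 54.6 CPM in order of age, cluster 6 had 26.8 and 33.1 at E13.5 and E15.5, and cluster 0 had 9.05, 14.5 and 17.7. Outside the neural clusters, cluster 1 had 30.9 CPM at E12.5 and then 7.31 and 4.18, and all other fitted sums were at or under 5.75. At the E12.5 stage the mesenchyme-like sum of 10 nuclei was again above both fitted neural sums, and at the later stages the groups were apart. The log2 fold changes were 2.46 ± 0.22 in cluster 0 (adjusted p = 4.0e-21), 3.21 ± 0.22 in cluster 6 (1.5e-30) and 3.33 ± 0.23 in cluster 9 (1.7e-31), among 14076 promoters of which 11.1%, 7.58% and 6.19% were called higher. At the Pou3f3 promoter, cluster 9 had 21.0, 20.6 and 35.8 CPM, cluster 6 had 17.6 and 28.2 at E13.5 and E15.5, and cluster 0 had 11.5, 17.4 and 20.1, while cluster 1 reached 14.5 at E15.5 and the rest stayed at or under 9.53. Its log2 fold changes were 1.95 ± 0.18, 2.08 ± 0.20 and 2.33 ± 0.21 in clusters 0, 6 and 9, with adjusted p of 3.2e-19, 1.3e-17 and 1.8e-20.

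The Pou3f2 promoter was also higher in cluster 9 than in cluster 0, by 0.87 ± 0.25 on the log2 scale (edgeR adjusted p = 0.018, with 3.57% of promoters called higher). That call depended on the setting, since the adjusted p was 0.60 with DESeq2, 0.40 without E13.5, 0.057 without the deepest nuclei, and 0.83 without E15.5, where the difference fell to 0.46. The Pou3f3 promoter gave 0.38 for the same comparison (adjusted p = 0.42), and neither promoter passed between clusters 9 and 6 or 6 and 0, where 0.767% and 0.22% of promoters were called higher.

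Pou3f1 had few fragments at its GENCODE start, at most 4.86 CPM in any fitted sum, and none of its promoter comparisons passed (0.54 ± 0.48, 1.11 ± 0.50 and 0.44 ± 0.57 in clusters 0, 6 and 9). The cut sites of Tn5 within 5 kb of that start, 4183 in all, peaked downstream of it, with 390, 429 and 221 cut sites in the 100-bp bins centred 650, 750 and 850 bp into the gene. The RefSeq start of Pou3f1 lies at 124657646, 839 bp downstream of the GENCODE start, and for the other 2 genes both starts are the same base. For Pou3f2 the most cut bins were those at -150 and -50 bp (448 and 382 of 5036 cut sites), with a second rise near 3 kb upstream, and for Pou3f3 those at -50 and -150 bp (466 and 451 of 6224). The open site of Pou3f1 therefore fell outside the first promoter window, and a window at the RefSeq start was added after these data had been seen. In that window cluster 0 had 4.94, 13.1 and 12.8 CPM in order of age, cluster 6 had 15.3 and 14.8 at E13.5 and E15.5, cluster 9 had 6.22, 13.3 and 12.8, and cluster 1 had 15.4, 11.1 and 11.7. The other fitted sums lay between 1.56 and 7.93 CPM. At E13.5 and E15.5 all neural sums were above all others, and at E12.5 cluster 1 was above both neural sums. The log2 fold changes were then 1.03 ± 0.19 in cluster 0 (adjusted p = 5.4e-06), 1.15 ± 0.22 in cluster 6 (1.6e-05) and 0.86 ± 0.24 in cluster 9 (0.012), with 10.3%, 7.2% and 5.53% of 13171 promoters called higher. Cluster 9 against cluster 0 gave -0.17 ± 0.27 at this window, which was not called (3.42% called higher).

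**Figure D3:**
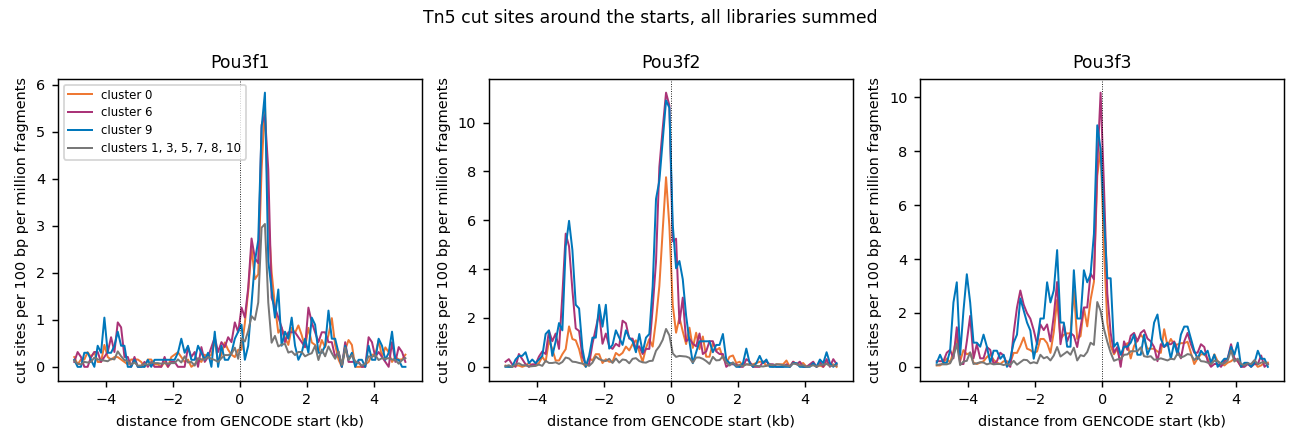
Tn5 cut sites per 100 bp, scaled to depth in the same way as CPM (y axis), by distance from the GENCODE start in kb (x axis, in the direction of transcription), for clusters 0, 6 and 9 and the sum of clusters 1, 3, 5, 7, 8 and 10, libraries summed. The Pou3f1 maximum sits 650 to 850 bp inside the gene, those of Pou3f2 and Pou3f3 sit just before the start, and Pou3f2 has a further rise near 3 kb upstream in the neural clusters.

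The 100 kb flanks on both sides, without the gene windows, held most of the fragments of each locus. In the fit they differed less between the neural clusters and the others than the gene windows did. At E12.5 the ratio of the neural mean to that of the others was instead larger in the flanks for Pou3f2 and Pou3f3. It was 1.44 beside 1.15 in the gene window for Pou3f2, and 2.76 beside 2.68 for Pou3f3. The flanks of Pou3f2 had 82.5, 135 and 179 CPM in cluster 9 in order of age, 91.4 and 85.4 in cluster 6 at E13.5 and E15.5, and 68.3, 59.3 and 51.2 in cluster 0. Those of Pou3f3 had 238, 178 and 204 CPM in cluster 9, 132 and 164 in cluster 6 and 101, 118 and 108 in cluster 0. For both genes every cluster 9 value was above every cluster 0 value. Against the other clusters, cluster 9 was higher by 1.76 ± 0.18 for Pou3f2 (edgeR adjusted p = 4.8e-09) and by 1.70 ± 0.18 for Pou3f3 (6.4e-09), where 7.48% of flanks were called higher. Cluster 9 also exceeded cluster 0 by 1.16 ± 0.26 for Pou3f2 (0.0077) and 0.90 ± 0.24 for Pou3f3 (0.031), with 2.5% called higher. These 2 calls were lost with fewer libraries. Without E13.5 the differences were 1.14 and 1.063 (adjusted p of 0.49 and 0.36), without E15.5 they were 0.79 and 0.88 (0.37 and 0.16), and without E12.5 that of Pou3f3 was 0.75 (0.16). For Pou3f3 the call was also lost with sums of at least 20 nuclei (0.76, 0.11), without the deepest nuclei (0.81, 0.095) and without cluster 3 (0.89, 0.053). In clusters 0 and 6 the Pou3f2 flanks were higher than in the other clusters by 0.60 ± 0.20 (0.031, with 7.55% called higher) and 1.24 ± 0.21 (0.00013, with 5.33% called higher), which without E13.5 were 0.54 and 1.12 with an adjusted p of 0.43 and 0.40. In cluster 0 the call was also lost without E15.5 (0.70, 0.13), without TMM (0.48, 0.068) and without the deepest nuclei (0.47, 0.17). The flanks of Pou3f1 hold several other genes, Utp11, Fhl3, Sf3a3 and Inpp5b among them, and had 221, 245 and 190 CPM in cluster 0, 249 and 254 in cluster 6 at E13.5 and E15.5, and 198, 249 and 206 in cluster 9. Their difference over the mean of the neural clusters was 0.28 ± 0.08 (adjusted p = 0.0073, with 13.8% called higher), and it did not pass without TMM scaling (0.16, adjusted p = 0.11), without E13.5 (0.30, 0.22) or without E15.5 (0.29, 0.12).

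The flanks were then divided into tiles. Of the 1 kb tiles of each locus, 205 for Pou3f1, 207 for Pou3f2 and 209 for Pou3f3, only 62, 16 and 34 had enough fragments to be tested, and 18, 16 and 27 were called higher in the mean of the neural clusters, beside 10.6% of 158084 tiles over the genome. A tile could pass the filter on low counts, which asked for about 2.55 CPM in at least 2 sums, through the neural clusters alone, so these counts give no support by themselves. This was checked for 17 tiles only, those named by rule and all those called lower, and 6 of them passed in this way. The other tiles called higher were not checked, so more of them may have passed so. The 6 are counted in the calls and ranges below, and their own values are given as a description. Outside the gene windows, all 12 tested tiles around Pou3f2 were called higher, so their positions are those of the tiles that passed the filter. They ran from -76.14 to +11.87 kb, 11 of them within 20 kb of the start, with log2 fold changes from 1.51 to 3.26. The largest was at a tile that passed through the neural clusters alone. Around Pou3f3, 19 of 25 tested were called higher, from -47.27 to +22.73 kb and 16 of them within 20 kb, with 1.34 to 3.26. Around Pou3f1 there were 15 of 58 tested, from -94.31 to +16.69 kb and 8 of them within 20 kb, with 1.32 to 3.03. For Pou3f3 and Pou3f1, the tiles with the largest values and those at the ends of the spans were not checked for the filter. The largest of Pou3f3, at -15.27 kb, had 0.67, 0.88 and 2.09 CPM in clusters 0, 6 and 9, with libraries summed, and 0.16 in the others. At the Pou3f1 locus 4 of the 62 tested tiles were called lower, a share near the 4.62% over the genome. They lay between +43.69 and +53.69 kb, in or beside Fhl3, a LIM domain gene. No tile was called lower among the 16 and 34 tested at Pou3f2 and Pou3f3, too few to set the loci apart in this. With 500 bp tiles, 11, 16 and 24 of 51, 17 and 30 tested were called higher, beside 13.3% over the genome. Of the 51 at Pou3f1, 8 were called lower, a share above the 7.5% over the genome, so that reading depended on the tile size.

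The tile 3.13 kb upstream of Pou3f2, overlapping an exon of the non-coding gene Gm30731 and holding the stretch printed above, had 5.76, 4.22 and 3.59 CPM in cluster 0 in order of age, 10.1 and 15.4 in cluster 6 at E13.5 and E15.5, and 3.11, 10.4 and 28.3 in cluster 9. No other fitted sum passed 2.38 CPM, so all 8 neural sums were above all 15 others. The tile is among those that passed the filter through the neural clusters alone. Gm30731 is transcribed on the opposite strand, so an open site there cannot be given to 1 of the 2 genes. The tile 7.14 kb upstream of Pou3f2, which passed the filter in the same way, had 3.11, 8.41 and 24.96 CPM in cluster 9 (4, 33 and 37 fragments), but only 1.65, 1.25 and 0.598 in cluster 0 and 2.35 and 2.57 in cluster 6, where the others reached at most 1.96. Between clusters 9 and 0, a comparison chosen after these data had been seen, it was the 1 tile called higher in the 3 loci (0.893% of those tested, beside 0.689% over the genome). With 500 bp tiles, 2 of 98 were called higher in this comparison (2.04%, beside 1.7% over the genome). Both shares are near the background, so these calls are no result about the loci. Downstream of Pou3f2, the tile at +10.87 kb was higher in the mean of the neural clusters by 1.69 ± 0.32 (edgeR adjusted p = 8.4e-06). The tile at +8.87 kb passed the filter through the neural clusters alone and reached 5.86 CPM in them and 1.97 in the others.

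Near Pou3f3, the tile at -9.27 kb in an intron of Pantr1 (a long non-coding gene that neighbours Pou3f3) had 3.29, 8.45 and 5.98 CPM in cluster 0, 4.69 and 7.38 in cluster 6 at E13.5 and E15.5, and 10.1, 10.7 and 6.75 in cluster 9. The others lay between 0 and 2.94 CPM, again below all 8 neural sums, and the log2 fold change was 2.504 ± 0.31 (edgeR adjusted p = 3.3e-13). It was also the tile with the most fragments outside the Pou3f3 window. Tiles at -10.27 kb and at +8.73 kb, the latter in an intron of the non-coding gene AC122898.1, passed the filter through the neural clusters alone. They had medians of 4.05 and 4.51 CPM over the neural sums and of 0.562 and 0.958 over the others. No other protein-coding gene lies within the 100 kb flanks of Pou3f3.

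Downstream of Pou3f1, the tile at +15.69 kb in no gene, which holds the printed stretch with the TAATTA pair, was most open in cluster 6, with 19.1 and 11.2 CPM at E13.5 and E15.5. Cluster 9 had 8.56, 14.02 and 6.75 CPM, cluster 0 had 4.94, 3.13 and 3.24, and the others reached 3.47, so that cluster 0 overlapped them. The log2 fold change over the mean of the neural clusters was 2.37 ± 0.29 (edgeR adjusted p = 8.2e-14). A tile at -63.31 kb, in an intron of the antisense gene Gm2164, passed the filter through the neural clusters alone and had a median of 3.99 CPM over the neural sums and 0.595 over the others. Of its 8 neural sums 1 was above all others, since cluster 5 had 7.87 CPM from 4 fragments at E15.5. The opposite pattern came from the tile at +52.69 kb beside Fhl3, which had 17.2, 16.4 and 19.5 CPM in mesenchyme-like cluster 1 and at most 6.22 in any neural sum, and fell by 1.61 ± 0.27 on the log2 scale in the neural clusters (1.9e-07). The tile with the most fragments of the locus, at +94.69 kb in an exon of Inpp5b, was even between the groups (log2 fold change 0.005).

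**Figure D4:**
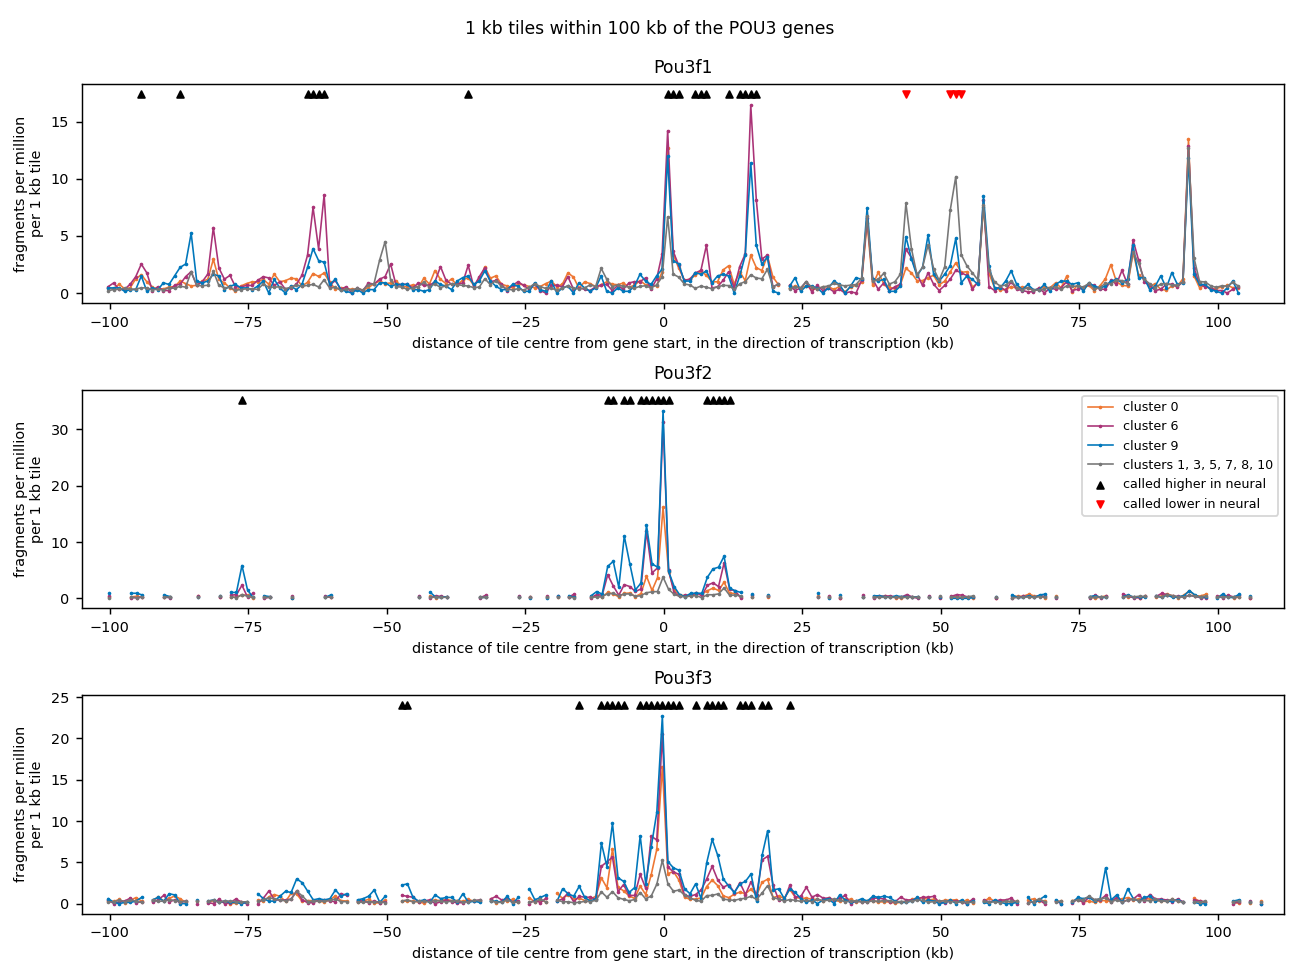
CPM in 1 kb tiles (y axis) by distance of the tile centre from the gene start in kb (x axis, in the direction of transcription) for clusters 0, 6 and 9 and the sum of clusters 1, 3, 5, 7, 8 and 10, libraries summed; tiles with under 20 fragments over all sums are not drawn. Triangles mark tiles called higher (black) or lower (red) in the mean of the neural clusters. Outside the gene windows, 12 of 12 tested tiles of Pou3f2, 19 of 25 of Pou3f3 and 15 of 58 of Pou3f1 were called higher, beside 10.6% of tiles over the genome. At Pou3f2 the positions are thus those of all tiles that passed the filter. The locus of Pou3f1 has open tiles shared by all clusters, and 4 of 62 tested were called lower, near the 4.62% over the genome. With 500 bp tiles (not drawn) 8 of 51 were called lower, a share above the 7.5% over the genome.

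Within clusters, the E13.5 and E15.5 libraries could be set side by side, with exact Poisson 95% intervals that cover counting error only and with no test. In cluster 9 the Pou3f2 window had 51.0 CPM (44.1 to 58.5) at E13.5 and 76.9 (63.4 to 92.4) at E15.5, a ratio of 1.51. Pou3f3 had 48.7 (42.0 to 56.1) and 76.2 (62.8 to 91.7), a ratio of 1.57. Both pairs of intervals were apart, but 12% of 6117 genes were past 1.5-fold higher in this cluster, and its E15.5 sum held 20 nuclei. Pou3f1 had 23.4 and 21.6 CPM there, with 32 fragments at E15.5. At the promoters the ratios were 1.79 for Pou3f2 and 1.73 for Pou3f3, where 26.1% of 307 promoters with enough fragments were past 1.5-fold higher. In cluster 0 the gene window ratios were 0.79 for Pou3f1, 0.95 for Pou3f2 and 1.09 for Pou3f3, and in cluster 6 they were 0.93, 0.97 and 1.21, with 2.88% and 4.9% of genes past 1.5-fold higher. At the promoters of Pou3f2 and Pou3f3 the ratios were 1.21 and 1.16 in cluster 0, and 1.23 and 1.604 in cluster 6, with 7.05% and 17.7% of promoters past 1.5-fold higher. Differences in ratio between clusters were not tested. In cluster 1 Pou3f3 had 19.05 CPM at E13.5 and 32.6 at E15.5, a ratio of 1.71 (2.9% of genes past 1.5-fold higher), and Pou3f2 had a ratio of 0.68.

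The share of nuclei with at least 1 fragment in the gene window was also higher in the neural clusters. Nuclei were pooled over the libraries and are not replicates, so the intervals below describe the shares and test no difference. At the main thinned depth, the neural intervals stood apart from all others for Pou3f3 and not for Pou3f2 and Pou3f1. For Pou3f3 the gap was narrow, between cluster 0 (31.9 to 44.0) and cluster 10 (11.6 to 30.8), in 1 random thinning. With each nucleus thinned to 10000 fragments, 36.3% of 80 nuclei of cluster 9 had a Pou3f2 fragment (95% Clopper-Pearson interval 25.8 to 47.8), 37.5% of 128 in cluster 6 (29.1 to 46.5) and 27.9% of 262 in cluster 0 (22.5 to 33.7). In erythroid-like cluster 5 it was 4.47% of 179 nuclei (1.95 to 8.62). The neural shares were above that of cluster 5, and the intervals of the 3 neural clusters overlapped. Unthinned, the Pou3f2 shares were 85.0%, 80.5%, 71.4% and 14.5%, at median depths of 73296, 65193, 66397 and 60994 fragments. For Pou3f3 the thinned shares were 51.3% in cluster 9, 42.2% in cluster 6, 37.8% in cluster 0 and 3.91% in cluster 5, and for Pou3f1 28.8%, 21.1%, 22.5% and 7.26%. The highest shares outside the neural clusters were 13.3% for Pou3f2 in cluster 10 (6.58 to 23.2, reaching into that of cluster 0), 21.9% for Pou3f3 in cluster 1 (17.0 to 27.5) and 17.9% for Pou3f1 in cluster 1 (13.4 to 23.2), the last within the interval of cluster 6 (14.4 to 29.2). Thinned to 5000 fragments, the interval of Pou3f3 in cluster 0 (10.2 to 18.9) overlapped that in cluster 1 (7.75 to 15.9) and those in clusters 3, 7 and 10. At this depth Pou3f1 had 8.40% in cluster 6, 8.24% in cluster 1 and 8.17% in cluster 3. Nuclei with a fragment at all 3 genes made up 8.75% of cluster 9, 6.25% of cluster 6 and 4.20% of cluster 0. Elsewhere such nuclei were 0.398% of cluster 1 and 0.962% of cluster 7, and none was found in clusters 3, 5, 8, 10 and 11, where a count of 0 (taken as 3 counts at most) allows shares of up to 1.44%, 1.68%, 3.26%, 4.0% and 10.0% at this thinned depth. Unthinned, nuclei with a fragment at all 3 genes were 53.8% of cluster 9, 46.9% of cluster 6 and 32.8% of cluster 0, beside 21.2% of cluster 3, 16% of cluster 10, 14.3% of cluster 1, 13.46% of cluster 7, 7.61% of cluster 8 and 3.91% of cluster 5.

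Per kb of window, the 3 genes had the highest levels of the POU genes in the neural clusters. This order rests on the division by length, since the windows of other POU genes are much longer and, undivided, Pou2f1 (139525 bp) had 136 CPM in cluster 9 where Pou3f2 had 51.3. Pooled over libraries, cluster 9 had 6.76 CPM per kb at Pou3f2, 5.91 at Pou3f3 and 3.76 at Pou3f1. Pou3f4, the X-linked member of the class, had 2.24 CPM per kb in cluster 9 and 2.06 in cluster 0. The highest level of any POU gene outside class III was 2.36 CPM per kb, at Pou4f1 (a sensory neuron factor) in muscle-like cluster 10. Of 12 other POU genes tested, 6 rose in the mean of the neural clusters and none fell, with a median log2 fold change of 0.53, beside 11.2% higher, 9.16% lower and a median of -0.025 over all genes. Pou3f4 was among them with 1.97 ± 0.25, a value between those of Pou3f3 and Pou3f2, as were Pou4f2 (0.98 ± 0.26) and Pou4f1 (0.77 ± 0.18). None of the 12 passed between clusters 9 and 0.

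**Figure D5:**
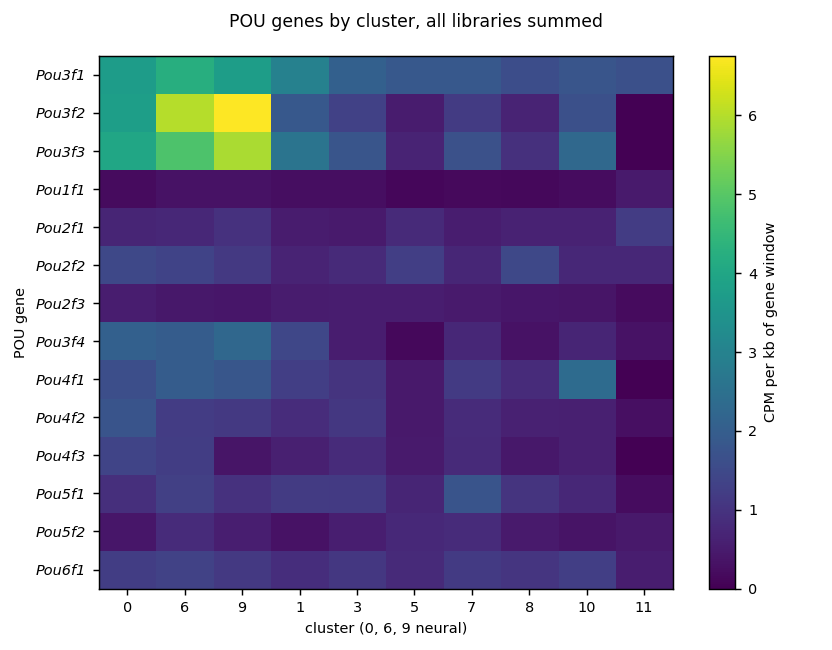
Accessibility of POU genes (rows) in each cluster (columns), libraries summed, as CPM per kb of the gene window (colour scale). Pou3f2 and Pou3f3 are brightest in clusters 9 (6.76 and 5.91) and 6, Pou3f1 is spread more evenly, and no gene drawn outside class III exceeds 2.36.

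Genes with known ties to the POU3 factors were examined as lists, chosen with earlier results of these data known. The SOX and neural lists hold genes of neural cells and were set against clusters named as neural. Their counts are therefore a description and no evidence of enrichment. SOX factors bind DNA beside POU factors in neural cells, and 6 of 8 SOX genes tested rose in the mean of the neural clusters while none fell (median log2 fold change 1.08), against the same 11.2% over all genes. Sox1, Sox2 and Sox3, which mark neural progenitors, had 2.04 ± 0.18, 1.59 ± 0.19 and 1.86 ± 0.26, and Sox11, of young neurons, had 1.21 ± 0.15. Between clusters 9 and 0, 3 of the 8 also passed (1.61% over all genes), namely Sox3 (2.37 ± 0.46), Sox21 (1.44 ± 0.33) and Sox1 (1.34 ± 0.32). No POU3 gene window passed there, but differences between the SOX and POU3 genes were not tested. Sox1 and Sox2 were among the markers by which cluster 9 was named and Sox3 was among its leading genes, so their values there describe the cluster. Of 10 genes tested among 11 linked to Pou3f2 or Pou3f3 in neural cells, 8 rose and none fell (median 0.83, with 11.2% and -0.025 over all genes). They included the neuronal factor Myt1l (1.64 ± 0.12), the Cdk5 activator Cdk5r2 (0.96 ± 0.17) and the Notch ligand Dll1 (0.95 ± 0.14). Nes, which encodes the progenitor filament nestin, was the 1 gene of this list called between clusters 9 and 0 (1.53 ± 0.27).

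Of the 8 Schwann cell genes linked to Pou3f1 that were tested, 3 passed, all of them lower in the neural clusters, with a median log2 fold change of -0.25 over the 8. Over all genes 9.16% were called lower and 11.2% higher. The 3 were Erbb3, a neuregulin receptor (-0.70 ± 0.15), Pmp22, a myelin protein (-0.60 ± 0.15), and Prx, periaxin of peripheral myelin (-0.60 ± 0.12). Between cluster 7 and the remaining non-neural clusters, 1 of the 8 was called higher, Erbb3 by 0.84 ± 0.22 (edgeR adjusted p = 0.046), beside 0.931% of all genes, and the other 7 did not pass. Pou3f1 itself had -0.10 there.

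Over the 23 fitted sums, the log levels of the members rose and fell together, with a Pearson r of 0.906 between Pou3f1 and Pou3f2, 0.777 between Pou3f2 and Pou3f3 and 0.738 between Pou3f1 and Pou3f3. The sums share 3 libraries and 9 clusters, so these are descriptions. Among the genes most like Pou3f1 were Pou3f2, Apba2 (0.876), Jph4 (0.872) and Gm43517 (0.870). Those most like Pou3f2 included Ephb6 (0.912), an ephrin receptor, Pou3f1, Gm43517 (0.905) and Jph4 (0.888). Pou3f3 had another set, with Scrn1 (0.883), Gm43517 (0.863), Lhx2 (0.843), a factor of the cortical primordium, Fam19a5 (0.840) and Gnao1 (0.830). Jph4 and Gm43517 were shared by the first 2 lists, and Gm43517 was in all 3.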

How the data were processed

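Single-nucleus ATAC-seq was available as 1 fragment file per stage and 1 table of nuclei. The authors deposited fragments made with Cell Ranger ATAC 2.0.0 against mm10, which shifts ends to the Tn5 cut and collapses duplicates, and the deposited counts per fragment are read pairs, not used as weights here. Cluster numbers came from the deposited table (Seurat 4.1.0 and Signac 1.6.0 are named in the submitters' processing notes, with settings not stated). Its 20 other per-nucleus columns were not used. No source used here says how doublets were treated, and none were removed.

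Unique fragments overlapping a gene or promoter window, or with their midpoint in a flank or tile, were summed per cluster and library, a fragment counting once. Gene windows were the body plus 2 kb upstream, promoters 1000 bases before to 100 after the start, and flanks 100 kb on each side. Genes were protein-coding, with Pcdh and Ugt genes (91), repeated symbols (26) and spans over 500 kb (228) left out. Sums of at least 10 nuclei from clusters with at least 2 libraries were fitted in edgeR 4.0.16 (R 4.3.3; TMM, filterByExpr, quasi-likelihood test, cluster and library terms), with Benjamini-Hochberg adjustment over all 19124 genes, 14076 promoters, 21199 flanks or 158084 tiles, and in DESeq2 1.42.0 as an alternative. The fit was tested on simulated counts. The p-values measure how clusters vary over the libraries, of different stages, beyond the shift that the library term takes out. Clusters 6, 7, 8 and 10 entered with 2 libraries and the other fitted clusters with 3. The members and all gene lists were chosen with earlier results of these data known. Of each list at most 4 genes with the largest absolute log2 fold change are named, of the tiles outside a gene window the 3 called with the smallest p and the 3 with the most fragments, and the 5 genes with the highest r, except for a few genes that are not reported here. Sequences came from RefSeq (GRCm38.p6), whose promoter table held Pou3f2 and Pou3f3. Intervals cover counting error only.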

Additional observations from a re-analysis of the deposited data

Results flagged for a closer look

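Clusters 2 and 4 were outside every comparison above, and their levels were examined as data that the rule leaves aside. In cluster 2 (223 nuclei, 2609757 fragments) Pou3f1 had 21.1 CPM from 55 fragments (95% Poisson interval 15.9 to 27.4), Pou3f2 had 14.6 from 38 (10.3 to 19.99) and Pou3f3 had 24.1 from 63 (18.6 to 30.9). In cluster 4 (206 nuclei, 199574 fragments) Pou3f1 had 30.1 CPM from 6 fragments (11.03 to 65.4).

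The direction of the difference between neural and other clusters was not the same in all libraries at 3 promoter windows of 2 genes. At the GENCODE start of Pou3f1 the ratio of the neural mean to the mean of the others was 0.375, 2.69 and 0.872 from the youngest to the oldest library, at levels of few fragments. At the RefSeq start of Pou3f1, examined after the data were seen, it was 0.785, 2.14 and 1.82 in the same order. At the Pou3f2 promoter it was 0.673 in the E12.5 library, where cluster 1 was high, then 5.99 and 10.8. The E12.5 ratios rest on 2 neural and 3 other sums, and those of the later libraries on 3 and 6, so the sets of clusters differ. The differences between libraries were not tested, since each stage was 1 library.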

How the results depend on the processing

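The neural calls of Pou3f2 and Pou3f3 over the gene window kept direction and call under all the alternatives fitted there, with log2 fold changes in clusters 0, 6 and 9 of 1.68 to 1.99, 1.996 to 2.64 and 2.28 to 3.04 for Pou3f2 and of 0.95 to 1.47, 1.46 to 1.80 and 1.66 to 2.23 for Pou3f3. For Pou3f1, leaving out 1 library gave 0.93 to 1.14, 1.17 to 1.22 and 0.98 to 1.12, the calls being lost without E13.5 and, in cluster 6, without E15.5; its flanks gave 0.27 to 0.30 without 1 library and 0.16 without TMM. At the RefSeq start, chosen after seeing the data, the Pou3f1 promoter gave 1.03, 1.15, 0.86 and, over the neural mean, 1.01. With 500 bp tiles, 11 Pou3f1 tiles were called higher and 8 lower. Uncalled differences between neural clusters changed sign. For Pou3f1 in cluster 9 against 0 the gene window gave -0.063 with sums of at least 20 nuclei, -0.056 and -0.018 without E12.5 and E15.5, -0.015 with no replicate block and -0.24 without the deepest nuclei. Leaving out 1 library, the Pou3f1 promoter gave -0.33 to 0.11 and the flanks -0.092 to 0.071. The promoter gave 0.12 without TMM, 0.11 with at least 20 nuclei, 0.11 without E12.5 and 0.26 without the deepest nuclei, and the flanks gave 0.0020, 0.078 and 0.071 without TMM, with at least 20 nuclei and without E12.5. Pou3f2 in cluster 9 against 6 gave -0.24 to 0.41 (gene window) and -0.31 to 0.36 (promoter) without 1 library, the lowest being without E15.5, and -0.017 without the deepest nuclei. In cluster 6 against 0, the Pou3f3 promoter gave -0.055 to 0.33 and the Pou3f1 flanks -0.010 to 0.32, the lowest again without E15.5. The causes were not tested, and fewer sums enter the fits without a library. The labels give no number that pairs samples, and without the library as replicate block 1 call of the 3 genes changed, that of the Pou3f1 flanks in cluster 6 (adjusted p = 0.057). Genes called in either direction over the neural mean numbered 3894, and 1135 and 1571 without E13.5 and E15.5 (promoters 3233, 1064 and 1188; flanks 5709, 958 and 1777). Between clusters 9 and 0 there were 439 genes, 8 and 70 without those libraries and 774 with DESeq2. Some barcodes of 1 library shared at least 10% of their fragments (11 of 36 in cluster 7 at E13.5), and keeping 1 of each such group changed no call of the 3 genes. The E12.5 library, with sums of 10 to 25 nuclei, limits what can be said of that stage.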
